A study of Mus musculus with 30 samples.

Results

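The genes described here are the members of the Wnt signalling pathway that the array measured: the Wnt ligands, their Frizzled receptors and Lrp co-receptors, the secreted and membrane inhibitors, the ligand-processing enzyme, the complex that destroys beta-catenin, and the transcription effectors. They were chosen by symbol alone, as every gene named Wnt, Fzd, Dkk, Sfrp or Tcf7 with a number, plus Axin1, Axin2, Lrp5, Lrp6, Lef1, Ctnnb1, Gsk3a, Gsk3b, Apc, Apcdd1, Porcn and Kremen1. The choice found 59 probes for 51 of the 19084 genes with a symbol: 19 ligands, 10 receptors, 2 co-receptors, 10 inhibitors, 1 processing enzyme, 5 genes of the destruction complex and 4 effectors. Tcf7 was not analysed here.

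Wnt proteins are secreted lipid-modified ligands. Porcn attaches the lipid, Frizzled proteins with Lrp5 or Lrp6 receive the ligand, and Dkk, Sfrp, Kremen1 and Apcdd1 act outside the cell or at its membrane to limit reception. Without a signal, Axin, Apc and the GSK3 kinases mark beta-catenin, the product of Ctnnb1, for breakdown. With a signal, or when GSK3 is inhibited, beta-catenin accumulates and binds Lef1 and the Tcf7 family. In mouse embryonic stem cells Tcf7l1 holds down several pluripotency genes, beta-catenin relieves that hold, and a GSK3 inhibitor is part of common culture media for these cells.

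The 30 samples are mouse cells and lines, deposited as 5 sets that were normalized separately. The 7 somatic samples are untreated: mouse embryonic fibroblasts (MEF1, WT MEF, MEF2 and MEF3), neonatal fibroblasts (MNF), adult lung fibroblasts (MAF) and adipose-derived stem cells (ADSC). The 11 chemically induced pluripotent lines (CiPSC) came from such cells through cocktails that the labels give as letter codes ending in +Z. All 11 codes hold the letter C, read here, from knowledge of the protocol, as an inhibitor of GSK3; the labels give the letters only. The other lines are 2 OSKM iPSC made from embryonic fibroblasts with transcription factors (OSKM), 2 SKM-FSK iPSC with the treatment code F, and 5 samples of embryonic stem cells (ESC), of the line TT2 in set 2 and of R1 in the other sets. Set 5 also holds MEF-derived cells after 12 days of VC6TF (D12) and after 20 and 32 days (D20, D32) of VC6TF+Z. WT MEF are wild type by label and no other genotype is given. The D12, D20 and D32 samples are bulk treated cultures, 1 for each day. Pluripotent lines grew on feeder layers of MEFs, a CiPSC line is 1 established line, and the labels of ADSC CiPS2 name both adipose cells and adult lung fibroblasts as its source. Each value is the deposited mean of 2 or 3 replicates of 1 sample. Whether samples came from separate cultures is not stated, so the p-values measure the spread between these samples.

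Of the 51 members, 28 had values in all 5 sets. Dkk1, Dkk4, Gsk3a, Lrp6, Wnt10b and Wnt8a had values only in set 5. Defining markers followed the labels: 9 of 9 tested pluripotency genes were higher in CiPSC and in ESC than in somatic samples, and fibroblast markers were lower for 11 of 12 in CiPSC and 12 of 12 in ESC. The summed intensity of the fibroblast markers, as a share of the mean of the somatic samples of the set, was 0.471% to 1.17% in the pluripotent lines of set 1, 0.644% to 4.11% in set 2, 0.387% to 0.462% in set 4, and 2.29% and 5.47% in the CiPSC control and ESC5. The sums held 3, 6, 12, 15 and 16 markers in sets 1, 2, 3, 4 and 5, so the shares compare samples within a set only. Within set 3 CiPS WT1 and CiPS WT2 stood apart at 10.8% and 12.6%, against 1.04% in ESC3. MEF3 also stood apart: it was at least 2-fold above all 5 other samples of its set for 16.2% of all genes. In such bulk samples fewer cells of a type and less RNA per cell cannot be told apart.

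Promoter windows from RefSeq (build GRCm38.p6) were found for 32 of the 51 genes, 40 windows in all. Each was searched from 250 bases before to 50 bases after the start for the letters bound by TCF and LEF proteins, CTTTGAT or, on the other strand, ATCAAAG, which do not overlap one another. They occurred in 2 of the 40 windows, 5% against 3.73% of all 32851 windows: 1 of Wnt11 and 1 of Wnt5b. The other windows of these genes, among them a second window of Wnt11, do not hold the letters. Against MEF3, Wnt5b differed by 0.30, 0.30 and -0.04 on the log2 scale on D12, D20 and D32. A link between the letters and the levels of the genes was not tested. The 250 bases before the start are given for Wnt11, which holds the motif and was higher in treated cells. They are also given for Axin2, the usual readout gene of the pathway, and for the neighbours Wnt3a and Wnt9a. The fitted differences of these neighbours from somatic samples had opposite signs. The last is Dkk2, which had the largest fitted difference among the 40 tested members. Capitals mark the motif, and each sequence runs 5′ to 3′ on the strand of its gene.
Wnt11 (chr7:98834862-98835111, strand +): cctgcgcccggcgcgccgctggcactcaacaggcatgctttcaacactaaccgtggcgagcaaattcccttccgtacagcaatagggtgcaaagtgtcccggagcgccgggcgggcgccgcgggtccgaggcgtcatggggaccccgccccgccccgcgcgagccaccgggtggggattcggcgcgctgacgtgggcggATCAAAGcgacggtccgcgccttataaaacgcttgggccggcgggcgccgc
Axin2 (chr11:108920099-108920348, strand +): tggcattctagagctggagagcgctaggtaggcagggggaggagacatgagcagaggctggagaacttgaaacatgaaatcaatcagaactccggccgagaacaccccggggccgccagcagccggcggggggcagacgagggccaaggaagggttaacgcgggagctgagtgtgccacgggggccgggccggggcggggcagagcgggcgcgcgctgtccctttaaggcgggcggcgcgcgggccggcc
Wnt3a (chr11:59290752-59291001, strand -): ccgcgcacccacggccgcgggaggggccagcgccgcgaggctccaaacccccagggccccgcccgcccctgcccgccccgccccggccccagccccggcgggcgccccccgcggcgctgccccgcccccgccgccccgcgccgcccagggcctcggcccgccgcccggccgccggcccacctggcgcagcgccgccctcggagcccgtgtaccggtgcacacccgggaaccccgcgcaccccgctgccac
Wnt9a (chr11:59306680-59306929, strand +): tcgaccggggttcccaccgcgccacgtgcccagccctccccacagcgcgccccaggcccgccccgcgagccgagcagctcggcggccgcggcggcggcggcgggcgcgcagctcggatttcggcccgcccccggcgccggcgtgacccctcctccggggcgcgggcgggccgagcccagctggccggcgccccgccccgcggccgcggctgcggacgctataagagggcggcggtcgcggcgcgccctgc
Dkk2 (chr3:132085042-132085291, strand +): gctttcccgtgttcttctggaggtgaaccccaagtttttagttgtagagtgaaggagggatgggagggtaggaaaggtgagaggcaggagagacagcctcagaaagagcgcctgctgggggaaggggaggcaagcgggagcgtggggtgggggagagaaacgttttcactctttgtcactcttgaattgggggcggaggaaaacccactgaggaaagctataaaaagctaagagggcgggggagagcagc
The window of Wnt9a holds 48 CG pairs, that of Wnt3a 41, Wnt11 37, Axin2 24 and Dkk2 7, against a median of 6 over all windows and 21 over the members' windows. The windows without capitals do not hold these letters.

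Against the somatic samples, both CiPSC and ESC had lower levels of the ligand Wnt5a, the receptors Fzd1, Fzd2 and Fzd8 and the inhibitors Dkk2, Dkk3 and Sfrp2, and higher levels of the ligands Wnt3a and Wnt4 and the receptor Fzd5. Calls required an adjusted p under 0.05 (limma, Benjamini-Hochberg over all genes tested) and at least a 2-fold difference. In CiPSC, 13 of 40 tested members were called, 4 higher and 9 lower, which is 32.5% of those tested against 28.2% of all 16497 genes and unnamed probes (14.9% higher and 13.3% lower). In ESC, 14 of 40 were called, 4 higher and 10 lower, or 35% against 29.6% of all (15.3% higher and 14.3% lower). The share of members called was therefore near that of all genes in both comparisons. Without set 3 the counts were 10 and 11 members, and without set 5, 14 and 14. The median difference of the members was -0.30 in CiPSC and -0.39 in ESC on the log2 scale, beside -0.11 and -0.09 over all genes tested. These comparisons share the somatic samples.

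**Figure D1:**
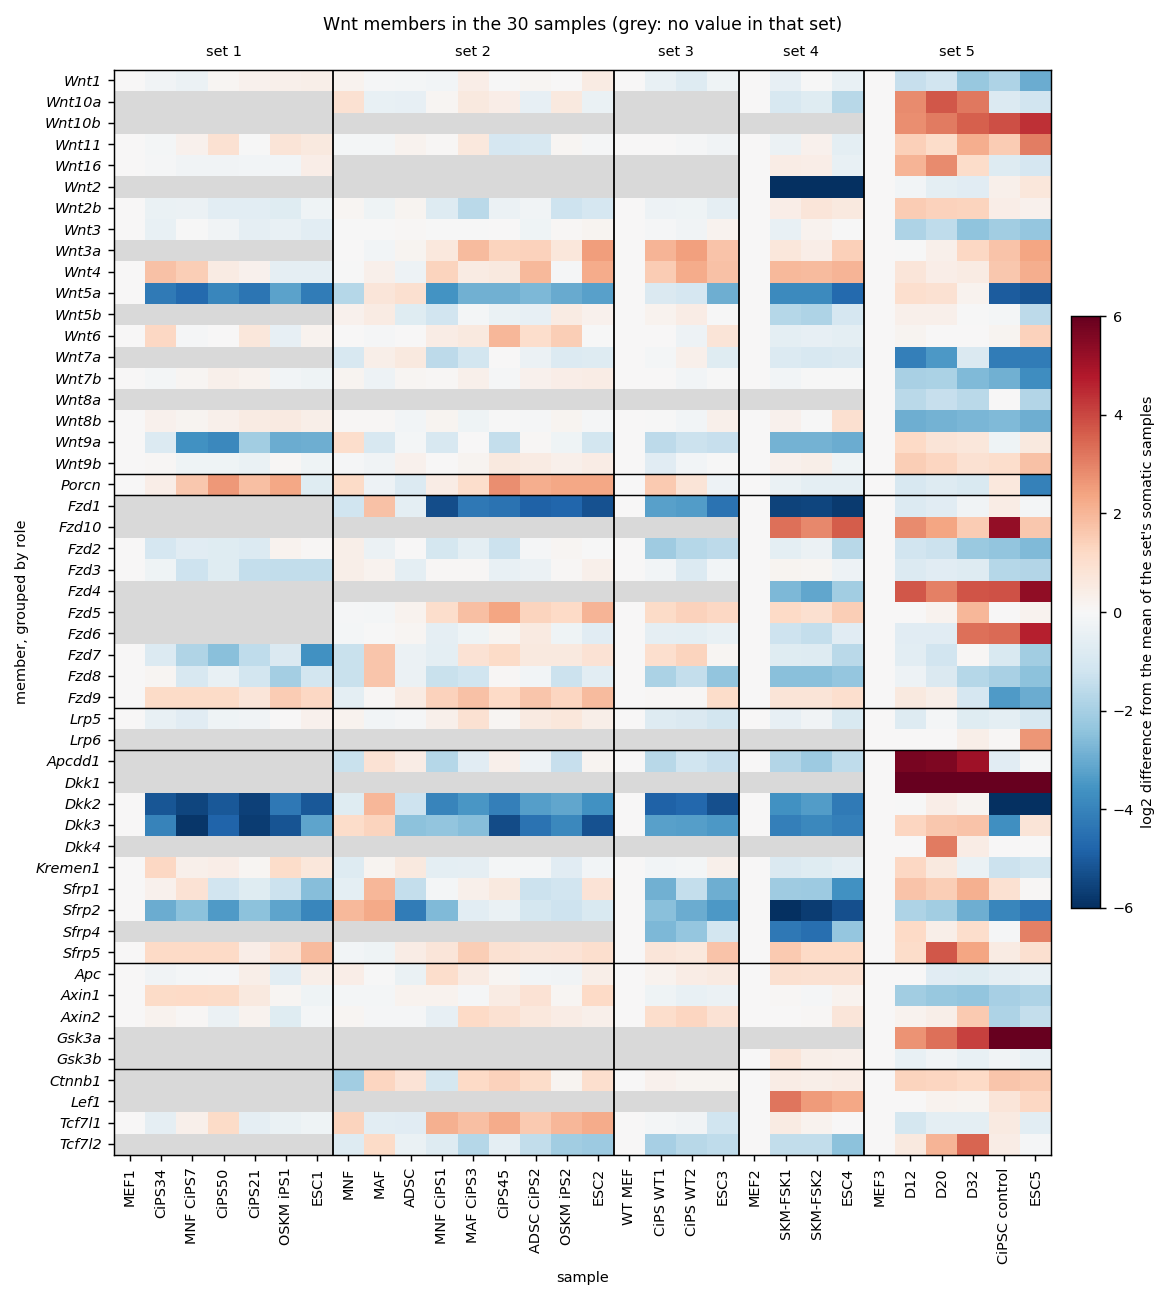
Heat map of the 51 members (rows, grouped by role) in the 30 samples (columns, by set). Colour gives the log2 difference from the mean of the somatic samples of the same set, from blue (lower) to red (higher), grey marks members with no value in that set, and values under 16 were set to 16. Dkk2, Dkk3 and Wnt5a are blue in most pluripotent samples, and Apcdd1, Wnt10a and Wnt16 are red in the treated samples D12, D20 and D32 of set 5.

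For all genes the shares were 14.9% higher and 13.3% lower in CiPSC, and 15.3% and 14.3% in ESC. Among the ligands, 2 of 16 were higher and 2 lower in CiPSC, and 2 were higher and 3 lower in ESC. Wnt5a, a ligand best known for signalling without beta-catenin, had the largest fall of them. Its intensity in set 1 was 2748 in MEF1, 110, 131, 144 and 180 in the CiPSC lines and 148 in ESC1. In set 2 it was 481 in MNF, 2576 in MAF and 3029 in ADSC, and 130 to 243 in the CiPSC lines. The pluripotent lines lay below every somatic sample of their set in all 5 sets. In set 3 the gap was narrower, with 1098 in WT MEF, 594 and 541 in CiPS WT1 and CiPS WT2 and 146 in ESC3. These 2 CiPSC lines are those with the fibroblast markers at 10.8% and 12.6% of WT MEF, and the part of feeder or residual fibroblasts in their Wnt5a was not tested. The fitted difference was -3.28 ± 0.39 (log2, SE; n = 11 and 7) in CiPSC, adjusted p = 6.1e-07, and -3.97 ± 0.46 in ESC (n = 5 and 7), adjusted p = 5.31e-07. Without set 3 the CiPSC difference was -3.78.

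Wnt3a and Wnt9a, which lie next to each other on chromosome 11, had fitted differences in opposite directions. Wnt3a is a strong activator of the beta-catenin branch. In set 2 its intensity was 48, 42 and 54 in MNF, MAF and ADSC, and 74, 174, 121 and 123 in the CiPSC lines MNF CiPS1, MAF CiPS3, CiPS45 and ADSC CiPS2, with 270 in ESC2. In set 3 it was 40 in WT MEF and 162, 221 and 128 in the 2 CiPSC lines and ESC3. All pluripotent samples measured exceeded all somatic samples of their set. The difference was 1.57 ± 0.27 in CiPSC (log2, SE; n = 7 and 6; adjusted p = 1.74e-04) and 1.98 ± 0.31 in ESC (n = 4 and 6; adjusted p = 8.65e-05). Wnt9a was lower, by -1.18 ± 0.44 in CiPSC (adjusted p = 0.0376) and -1.38 ± 0.52 in ESC (adjusted p = 0.0416). Its difference was uneven. In set 1 MEF1 had 915 and the CiPSC lines 519, 74, 63 and 214. In set 2 the somatic samples (256 to 1041) and CiPSC lines (184 to 533) overlapped. In set 5 ESC5, at 255, was above MEF3, at 168, and the CiPSC control had 141. The call of Wnt9a in ESC was lost in 15 of 31 alternative settings. The call of Wnt9a in CiPSC ended without any 1 of MEF1, MNF, WT MEF, MEF2, MNF CiPS7, CiPS50, MNF CiPS1, CiPS45, CiPS WT1 or the CiPSC control, with adjusted p from 0.0516 to 0.159.

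Wnt4 was higher by 1.41 ± 0.31 in CiPSC (n = 11 and 7; adjusted p = 8.70e-04) and also higher in ESC (95% interval 0.74 to 2.25; n = 5 and 7; adjusted p = 0.00256). Every CiPSC line exceeded the somatic samples of its set, with 258, 215, 108 and 94 against 78 in MEF1, and 78 to 215 against 46 to 70 in set 2. ESC1 was the exception among the ESC samples at 54, below MEF1. Wnt7a passed in ESC (95% interval -2.67 to -0.34; adjusted p = 0.042), and in CiPSC its difference of -1.11 ± 0.48 did not (adjusted p = 0.0777); whether these differ was tested only as CiPSC against ESC, where Wnt7a was not called. In set 5 MEF3 had 296 and the CiPSC control and ESC5 had 12 and 11. Within the other sets that measured it, the ESC difference was -0.72 to -0.85 on the log2 scale, and without set 5 the fit gave -0.85 (adjusted p = 0.115). The remaining ligands with tests, among them Wnt1, Wnt3, Wnt6, Wnt7b and Wnt11, passed in neither comparison.

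Porcn, the enzyme that attaches the lipid to Wnt ligands, was higher in CiPSC by 1.36 ± 0.51 (n = 11 and 7; adjusted p = 0.0382) and not in ESC (-0.49 ± 0.60; adjusted p = 0.539). The CiPSC lines of set 1 had 992, 2262, 4564 and 2617 against 749 in MEF1 and 451 in ESC1. In set 3 CiPS WT1 and CiPS WT2 had 2921 and 1702 against 995 in WT MEF and 796 in ESC3. In set 5 the CiPSC control had 7539, MEF3 4784 and ESC5 291. The CiPSC lines therefore lay above the R1 ESC sample of their set in sets 1, 3 and 5. In set 2 the TT2 sample, at 3309, lay within the CiPSC range of 906 to 4589. MNF, MAF and ADSC of that set had 1468, 532 and 374, so that MNF exceeded MNF CiPS1 (906) and MAF CiPS3 (1399). The call against somatic samples was lost in 17 of 36 alternative settings, among them the omission of any 1 of MEF1, MAF, ADSC, WT MEF, CiPS50, CiPS45, ADSC CiPS2, CiPS WT1 or the CiPSC control, and with MEFs as the only somatic samples it was 0.81 (adjusted p = 0.325).

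Among the receptors, 1 of 8 was higher and 3 lower in both comparisons. All genes stood at 14.9% higher and 13.3% lower in CiPSC, and at 15.3% and 14.3% in ESC. Fzd1 was lower by -3.61 ± 0.65 in CiPSC (n = 7 and 6; adjusted p = 2.91e-04) and -4.22 ± 0.75 in ESC (adjusted p = 2.98e-04). It read 745, 5773 and 1141 in MNF, MAF and ADSC and 42 to 87 in the CiPSC lines of set 2, 619 in WT MEF against 64, 60 and 29 in CiPS WT1, CiPS WT2 and ESC3, and 6138 in MEF2 against 115 in ESC4. Set 5 did not show this fall, since MEF3 had 233, the CiPSC control 322 and ESC5 215. Without set 2 the difference in CiPSC was -2.17 and did not pass (adjusted p = 0.109).

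Fzd2 had 2 probes. The one used, the brighter, gave -1.29 ± 0.26 in CiPSC and -1.01 ± 0.30 in ESC, while the other gave -4.10 ± 0.32 and -4.23 ± 0.38, with adjusted p = 1.34e-09 and 1.45e-08. On that other probe MEF1 had 2789 and the CiPSC lines 100 to 270, and WT MEF had 2747 against 157, 141 and 151 in CiPS WT1, CiPS WT2 and ESC3. Both probes placed CiPSC below somatic samples, and they differed in size. Fzd5 was higher, 191, 183 and 228 in the somatic samples of set 2 against 416, 706, 1023 and 498 in its CiPSC lines, with a difference of 1.27 ± 0.27 in CiPSC (adjusted p = 0.00134) and 1.37 ± 0.31 in ESC (adjusted p = 0.00254). A second probe of Fzd5 gave -0.03 ± 0.37 in CiPSC and 0.96 ± 0.42 in ESC, neither called, and the call was also lost without set 2 (0.82 in CiPSC, adjusted p = 0.123). Fzd8 was lower by -1.04 ± 0.35 (adjusted p = 0.0212) in CiPSC and -1.63 ± 0.41 (adjusted p = 0.00335) in ESC, a call that 14 of 36 alternative settings ended in CiPSC, with adjusted p up to 0.0868. These include the omission of any 1 of MAF, WT MEF, MEF2, MEF3, MNF CiPS1, MAF CiPS3, CiPS WT1 or the CiPSC control. The co-receptor Lrp5 did not pass in either comparison, with differences of -0.18 ± 0.21 and -0.31 ± 0.25.

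Of 8 tested inhibitors, 3 were lower in CiPSC and 0 higher, and in ESC 3 were lower and 1 higher. The shares of all genes were 13.3% lower and 14.9% higher in CiPSC, and 14.3% and 15.3% in ESC. No role was tested as a group. Dkk2, which binds Lrp co-receptors, was 3137 in MEF1 against 65 to 91 in the CiPSC lines of set 1 and 94 in ESC1. In set 2 it was 1490, 9702 and 1023 in MNF, MAF and ADSC against 144 to 249 in CiPSC lines. In set 5 it was 12102 in MEF3 against 191 in the CiPSC control and 159 in ESC5. No pluripotent sample reached a somatic sample of its set, and the difference was -4.55 ± 0.37 in CiPSC (n = 11 and 7; adjusted p = 1.81e-09) and -4.67 ± 0.43 in ESC (n = 5 and 7; adjusted p = 1.97e-08).

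Dkk3, a more distant relative of the Dkk family, fell by -3.96 ± 0.64 in CiPSC (adjusted p = 2.98e-05) and -3.08 ± 0.75 in ESC (adjusted p = 0.00251). In set 2 it read 17412, 20272 and 1480 in MNF, MAF and ADSC, and 1544, 1364, 192 and 379 in the CiPSC lines, so that MNF CiPS1 exceeded ADSC. ESC5 also departed from the other ESC samples, at 4895 against 2902 in MEF3. Sfrp2, a soluble protein that binds Wnts, fell by -2.33 ± 0.67 in CiPSC (adjusted p = 0.00816) and -3.22 ± 0.79 in ESC (adjusted p = 0.00267). The exception was ADSC with 141, below all CiPSC lines of set 2 (407 to 1927), whereas MNF and MAF had 9749 and 12228. Without set 1 the CiPSC difference of Sfrp2 was -2.24 and did not pass (adjusted p = 0.0655). Sfrp5 rose in ESC by 1.37 ± 0.22 (adjusted p = 3.40e-05). In CiPSC its rise of 0.82 ± 0.19 passed the test of the p-value (adjusted p = 0.0012) but stayed under 2-fold. Kremen1 (-0.33 ± 0.24 and -0.20 ± 0.28) and Apcdd1 (-0.87 ± 0.39 and -0.61 ± 0.45) did not pass in CiPSC or ESC.

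**Figure D2:**
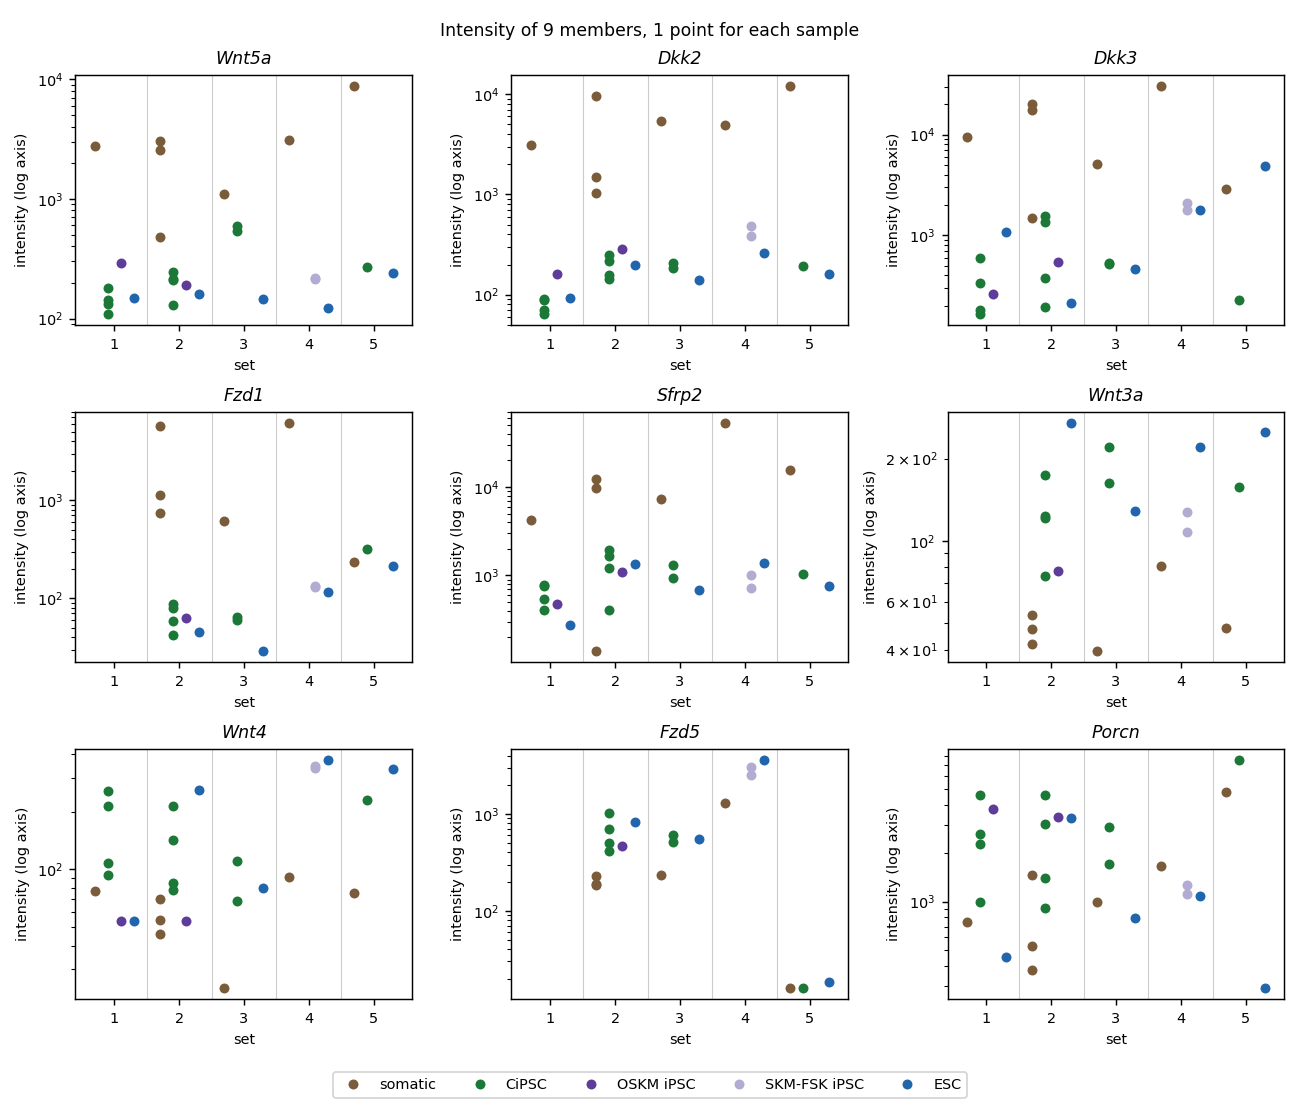
Intensity (log axis, values under 16 drawn at 16) of 9 members in the somatic, CiPSC, OSKM iPSC, SKM-FSK iPSC and ESC samples, 1 point for each sample, by set. Somatic points lie above all others for Wnt5a and Dkk2 in every set and below all CiPSC and ESC points for Wnt3a in every set that measured it; for Sfrp2 in set 2 the lowest point is ADSC, and Fzd1 and Fzd5 show no such gap in set 5.

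The destruction complex showed no call among 3 tested genes, beside 28.2% and 29.6% of all genes called in CiPSC and ESC. Of its tested genes, Axin1 differed by 0.13 ± 0.29 in CiPSC and -0.09 ± 0.34 in ESC, Apc by 0.19 ± 0.19 and 0.38 ± 0.23, and Axin2 by 0.29 ± 0.28 and 0.15 ± 0.32 (log2, SE). Axin2, which beta-catenin itself induces, read 209 in MEF1 and 164 to 244 in the CiPSC lines of set 1, and 224 to 263 in the somatic samples and 172 to 546 in the CiPSC lines of set 2. The groups overlapped in both sets. In set 5 it was lower in the CiPSC control and ESC5 (39 and 52) than in MEF3 (140), and in set 3 it was higher in CiPS WT1 and CiPS WT2 (268 and 323) than in WT MEF (130). Gsk3b, at 45 to 74 in set 4 and 10.1 to 22 in set 5, was measured in these sets only and not tested, and Gsk3a is given with the treated cells.

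Of the effectors, Tcf7l2 fell by -1.11 ± 0.37 in CiPSC (n = 7 and 6; adjusted p = 0.0251) and -1.61 ± 0.43 in ESC (adjusted p = 0.00709). In set 2 MNF, MAF and ADSC had 325, 1223 and 417 and the CiPSC lines 316, 169, 366 and 195, so that CiPS45 exceeded MNF. In set 5 the CiPSC control, at 335, was above MEF3, at 247, and ESC5 had 232. The call in CiPSC ended without MAF, WT MEF or CiPS WT1, with adjusted p up to 0.154 over all settings. Tcf7l1 differed by 0.96 ± 0.37 in CiPSC (adjusted p = 0.0428, under 2-fold) and 0.33 ± 0.44 in ESC. Its sets disagreed: all 4 CiPSC lines of set 2 (1793 to 2881) exceeded MNF, MAF and ADSC (1517, 394 and 377), while in set 3 both CiPSC lines (1245 and 1161) were below WT MEF (1331). Ctnnb1, the gene of beta-catenin, did not pass (0.71 ± 0.50 and 0.80 ± 0.58). MNF had 1274 and its line MNF CiPS1 2679, against 9652 to 13363 in MAF and ADSC and 6237 to 14395 in the other pluripotent samples of that set. Lef1, measured in sets 4 and 5 only, is given with those sets.

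Between CiPSC and ESC, 0 of 40 tested members were called (limma), against 5 of 16497 genes over the whole table (0.0303%). All 5 were higher in CiPSC, so that 0.0303% of all genes were higher and 0% lower. At an unadjusted p under 0.05 there were 2 members and 824 genes. The 95% intervals had a median half-width of 0.75 on the log2 scale, from 0.44 to 1.92, and lay within 2-fold in both directions for 18 of the 40 members. Porcn had the largest difference, 1.85 ± 0.58 (95% interval 0.65 to 3.06; adjusted p = 0.496). It passed the threshold when the TT2 sample was left out (2.71 ± 0.54; adjusted p = 0.025), where 0.435% of all genes were called, and was 1.15 ± 0.51 when ESC5 was left out (adjusted p = 0.892). The other at an unadjusted p under 0.05, Sfrp5, was lower in CiPSC (-0.55 ± 0.21; 95% interval -0.99 to -0.12; adjusted p = 0.815).

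**Figure D3:**
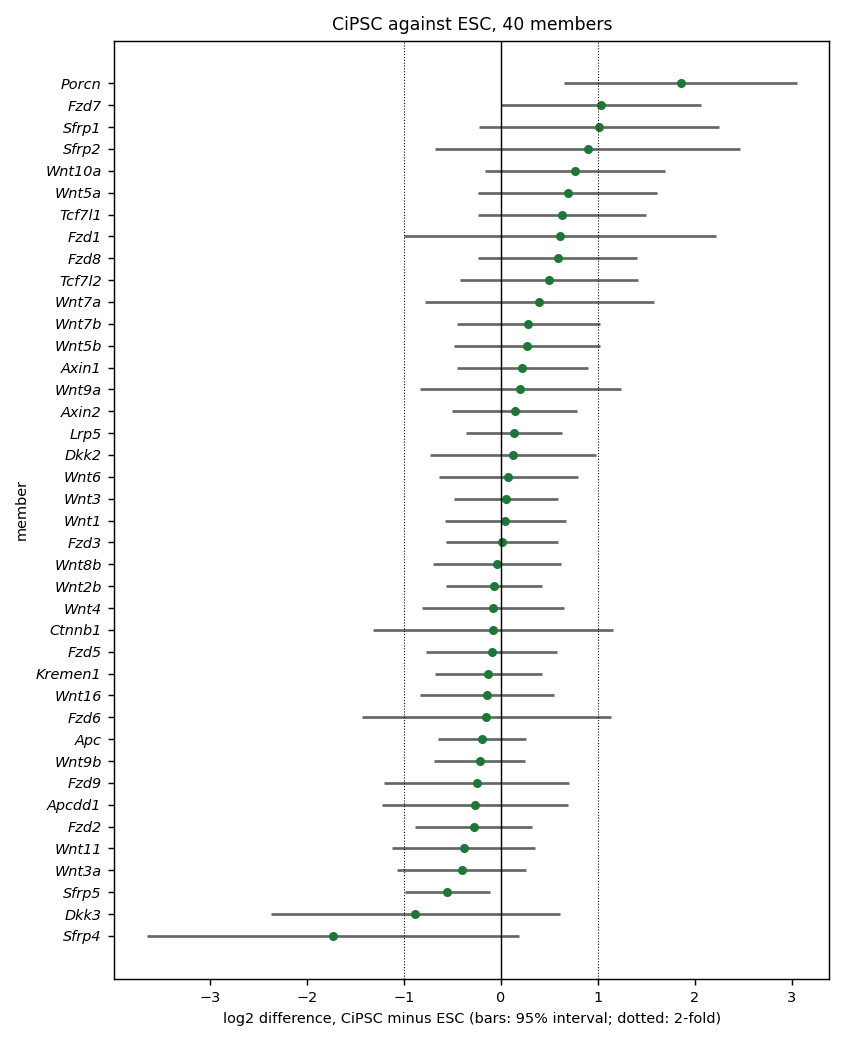
Difference between CiPSC and ESC for the 40 tested members, on the log2 scale (x axis), from the fit with group and set terms. Points are estimates, bars their 95% intervals, dotted lines mark 2-fold, and the interval of Porcn, 0.65 to 3.06, and that of Sfrp5, -0.99 to -0.12, leave out 0.

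OSKM iPSC, labelled as not chemically treated, were compared with CiPSC through sets 1 and 2. Of 28 tested members 0 were called (limma), and of all 11406 genes 0% were called in either direction. At an unadjusted p under 0.05 there were 2 members and 623 genes. These 2 were Wnt4, lower in OSKM iPSC by -1.36 ± 0.48 (n = 2 and 11; 95% interval -2.36 to -0.37; adjusted p = 0.761), and Fzd2, higher by 1.01 ± 0.40 (adjusted p = 0.811). Wnt4 read 54 in both OSKM lines, below the CiPSC lines of their sets, which ranged from 94 to 258 and from 78 to 215. The median half-width of the intervals was 0.99 on the log2 scale.

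The CiPSC lines also differed among themselves. Within set 1 Wnt9a ranged over 8.21-fold among the 4 lines, Porcn over 4.60-fold and Sfrp1 over 4.16-fold. Within set 2 Dkk3 ranged over 8.04-fold, Ctnnb1 over 5.37-fold, Porcn over 5.06-fold, Sfrp2 over 4.73-fold and Apcdd1 over 4.02-fold. The median range of the members was 1.64-fold in set 1 and 2.24-fold in set 2, beside 1.68-fold and 1.99-fold over all genes. Members past 4-fold were 3 of 29 and 5 of 38, and 4.02% and 12.1% of all genes passed that range. These lines differ in origin and cocktail at once, so that the part of either cannot be told apart.

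The SKM-FSK iPSC of set 4, again, had low Dkk2, Dkk3, Fzd1 and Wnt5a. Both lines were past 2-fold from MEF2 in the same direction for 19 of 45 members, 4 higher and 15 lower, against 33.9% of all 19521 genes, 17.9% higher and 16% lower. From ESC4, 3 members, Fzd2, Sfrp1 and Sfrp4, were past 2-fold in both lines, and 4.89% of all genes. There was 1 somatic sample, so no test was made. Lef1 was 18 in MEF2, 165 and 103 in the SKM-FSK lines and 88 in ESC4. The receptor Fzd10 was 36 in MEF2 and 359, 265 and 453 in these lines and ESC4, and the ligand Wnt2 was 1531 in MEF2 and 16, 11 and 10 in them. Sfrp2 fell from 52728 in MEF2 to 728 and 1006, and Wnt4 rose from 91 to 348 and 338. Fibroblast markers summed to 0.387% and 0.395% of MEF2 in the SKM-FSK lines. Their part in these falls was not tested.

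In the treated cells Apcdd1, Wnt10a, Wnt10b and Dkk1 were above MEF3, Wnt3, Wnt7b and Wnt8b below it, and Dkk2 within 2-fold of it on each day. Against MEF3, 19 members were past 2-fold higher and 10 lower on D12 (56.9% of 51, against 46.5% of all 23609 genes, 20.5% higher and 25.9% lower). On D20 these were 17 and 10 (52.9%, against 48.5%, 21.4% higher and 27.2% lower), and on D32 20 and 10 (58.8%, against 53.7%, 24% higher and 29.7% lower). With 1 sample a day there is no test and no replicate check. MEF3 alone was at least 2-fold above all 5 other samples of the set for 7 members, 13.7% against 16.2% of all genes: Axin1, Fzd2, Sfrp2, Wnt1, Wnt3, Wnt7b and Wnt8b. Wnt8b, for example, read 328 in MEF3 and 43 to 53 in the other 5, whereas MEF1 and ESC1 of set 1 had 44 and 56. The falls of these 7 from MEF3 rest on that sample. The 5 macrophage markers summed to 4914 in MEF3, 738, 701 and 2211 on the 3 days, 2110 in the CiPSC control and 4121 in ESC5, and 5, 5 and 4 of them were past 2-fold lower on the days. Their part in the members' levels was not tested.

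Apcdd1, Wnt10a and Wnt16 were high in the treated cells of set 5, at least 2-fold above MEF3, the CiPSC control and ESC5 on each of the 3 days. That pattern, chosen after its values were seen, held for 5.88% of the members and 3.75% of all genes. Apcdd1, a membrane inhibitor of Wnt reception, read 104 in MEF3, 5372, 5111 and 3549 on D12, D20 and D32, and 64 and 95 in the CiPSC control and ESC5, 51.7-fold above MEF3 on D12. Wnt10a, a ligand of the beta-catenin branch, read 96, then 695, 1288 and 855, then 54 and 43. Wnt16 read 63, then 256, 454 and 135, then 37 and 31. On at least 1 day 12 members (23.5%) were that far above these 3 samples, against 9.07% of all genes. This pattern too was chosen after its values were seen. The others were Axin2, Dkk4, Fzd5, Kremen1, Sfrp1, Sfrp5, Tcf7l2, Wnt2b and Wnt5a. Fzd5 met the pattern on the probe used only, and its other probes did not.

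**Figure D4:**
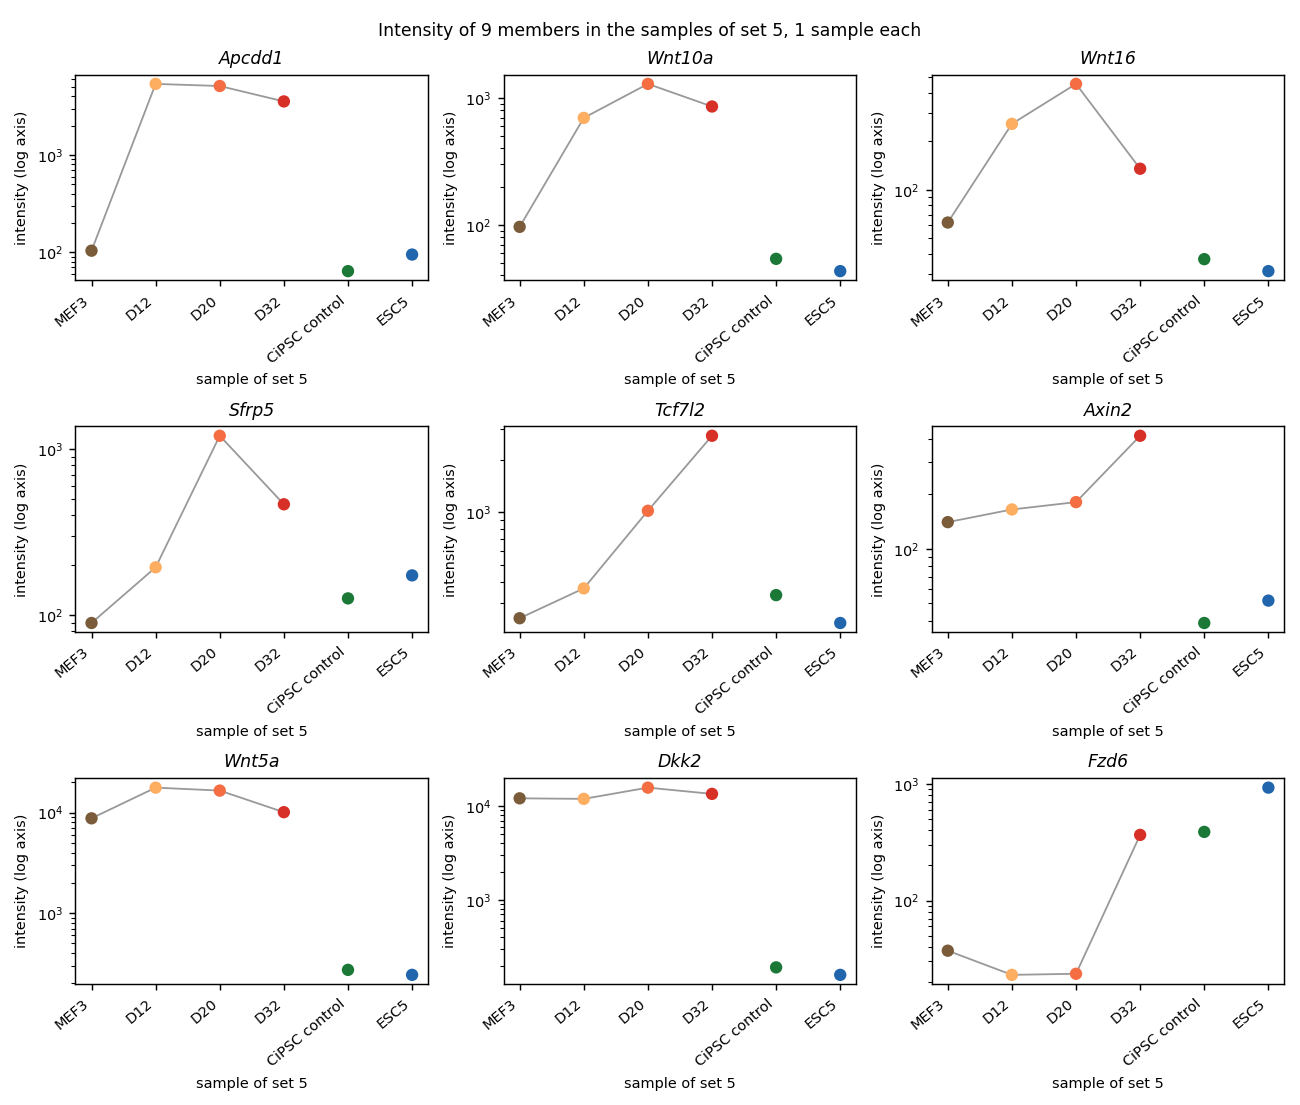
Intensity (log axis, values under 16 drawn at 16) of 9 members in the samples of set 5, 1 sample each, with a line joining MEF3, D12, D20 and D32. Apcdd1, Wnt10a and Wnt16 are high on the 3 days only, and Tcf7l2 and Axin2 are highest on D32. Wnt5a and Dkk2 are high in MEF3 and in treated cells and low in the CiPSC control and ESC5. Dkk2 stays near its MEF3 level, while Wnt5a is 2.02-fold above MEF3 on D12 and 1.89-fold on D20. Fzd6 differs from MEF3 upward first on D32.

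The later days added a smaller group. From D12 to D20, 3 members were past 2-fold, all of them higher (5.88%, against 3.34% of all genes, 2.52% higher and 0.813% lower): Sfrp5, Tcf7l2 and Dkk4, of which Dkk4 rose from under 16 to 137. From D12 to D32, 8 members were higher and 6 lower (27.5%, against 17.2% of all, 8.14% higher and 9.07% lower). Tcf7l2 read 247 in MEF3, 366, 1019 and 2746 on the 3 days, and 335 and 232 in the CiPSC control and ESC5. Axin2 stayed within 2-fold of MEF3 (140) on D12 and D20, at 164 and 180, and reached 418 on D32, whereas the CiPSC control and ESC5 had 39 and 52. Sfrp5 read 90 in MEF3, 194, 1204 and 466 on the days, and 126 and 174 in the lines. The rises of Tcf7l2 and Axin2 were therefore not kept in the 2 pluripotent samples of the set. Fzd6 followed another course: 37, 23 and 24 until D20, then 366 on D32, 389 in the CiPSC control and 932 in ESC5. The log2 difference of Fzd6 between ESC and somatic samples was 4.65 in set 5, but -0.70, -0.43 and -0.69 in sets 2, 3 and 4. That of CiPSC was 3.39 in set 5, but -0.02 and -0.55 in sets 2 and 3. The higher level of Fzd6 in the lines was therefore particular to set 5, where MEF3 was low. Wnt3a was 48 in MEF3 and D12, 60 on D20, 116 on D32, 157 in the CiPSC control and 250 in ESC5. The 3 probes of Fzd5 disagreed in this set. The one used was at 64 on D32 and near or under the floor of 16 in the other samples. A second read 152 in MEF3, 44.2 to 50.2 on the days, and 106 and 121 in the CiPSC control and ESC5. The third read 9.1 in MEF3, 78, 79 and 214 on the days, and 249 and 300 in the CiPSC control and ESC5. Gsk3a and Wnt7a were the others higher on D32 than on D12. On the probes used, the members lower on D32 than on D12 were Fzd2, Fzd8, Fzd9, Fzd10, Kremen1 and Sfrp2.

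Dkk2, Wnt5a and Dkk3, low in the CiPSC control, were high in treated cells. Dkk2 read 12102 in MEF3, 11940, 15733 and 13494 on D12, D20 and D32, and 191 and 159 in the CiPSC control and ESC5. Wnt5a read 8776, then 17742, 16578 and 10105, then 272 and 242. Dkk3 read 2902, then 7034, 8992 and 9426, with 227 in the CiPSC control and 4895 in ESC5. The summed fibroblast markers stood at 262%, 219% and 176% of MEF3 on these days, against 2.29% and 5.47% in the CiPSC control and ESC5. Of these 16 markers 9, 8 and 8 were past 2-fold above MEF3 on the days, and 2, 3 and 3 were below. Their part in the levels of Dkk2 and Wnt5a was not tested. Sfrp2, in contrast, was lower than in MEF3 on each day, at 4358, 3654 and 2056 against 15482, and 1042 and 760 in the lines.

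Among the other members past 2-fold from MEF3, Sfrp1 read 6118 in MEF3 and 20064, 17288 and 27117 on the days. Wnt11 read 161, then 438, 346 and 722, then 461 and 1361 in the CiPSC control and ESC5. Wnt2b (59, then 166, 152 and 148) and Wnt9b (180, then 500, 443 and 342) were also higher on D12. Kremen1, a receptor for Dkk proteins, was 2189 in MEF3 and 5223 on D12 and came back to 1636 by D32. Ctnnb1 read 4544 in MEF3, 11650, 11019 and 10253 on the days, and 14324 and 13613 in the lines, with MEF3 lowest of the 6. Fzd10 read 57, then 412, 297 and 164, with 2198 in the CiPSC control and 172 in ESC5, while its other probe was under 16 in all 6 samples. Wnt10b was 27, then 187, 236 and 326, then 396 and 567. Sfrp4 (47, then 109, 60 and 99) passed 2-fold on D12 and D32, and Wnt9a (168, then 386, 290 and 269) on D12. Lower than MEF3 on D32 were Fzd8 (786 to 243) and Fzd9 (795 to 396), while a second probe of Fzd8 was under 16 in all 6 samples. Fzd7 was past 2-fold lower only on D20 (9275 to 4236), Tcf7l1 only on D12 (1407 to 679), and Wnt7a was 296 in MEF3, 17 and 27 on D12 and D20 and 162 on D32. Wnt8a read 54 in MEF3 and 18, 21 and 17 on the days.

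Values under 16 in MEF3 set the size of some differences. Dkk1 was under 16 in MEF3 and 12337, 10618 and 9213 on the days, and it was as high in the CiPSC control and ESC5, 9332 and 11769. Gsk3a, a target of the inhibitor, was 11 in MEF3, 102, 159 and 276 on the days and 1572 and 1846 in the lines. Fzd4 was 9.1 in MEF3 and 131 to 222 on the days on the probe used, while its other probe stayed between 7.6 and 24.6 in all 6 samples. On the probes used, all 3 were low in MEF3 alone among the 6 samples, and the other somatic samples were not measured for Dkk1 and Gsk3a, while Fzd4 read 342 in MEF2 of set 4. Lef1 was under 16 in MEF3 and 16.3, 18.5 and 18.1 on the days. Like Lef1, Lrp6, Gsk3b and Wnt6 stayed at or near the floor on the 3 days, and no order was read from them. Apc and Lrp5 stayed within 2-fold of MEF3 on each day, and Porcn, at 2470 to 2782 against 4784, also did.

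Several genes that beta-catenin is known to induce were higher under treatment, among them Notum and Id2. Of the 20 listed targets measured in set 5, 11, 10 and 11 were past 2-fold higher on D12, D20 and D32 and 1 was lower on each day. All genes stood at 20.5%, 21.4% and 24% past 2-fold higher and 25.9%, 27.2% and 29.7% lower. The median difference of the targets was 1.30 on D12, beside -0.04 over all genes. Of the 16 fibroblast markers 9, 8 and 8 were past 2-fold higher on the days and 2, 3 and 3 lower, with a median of 1.64 on D12. Their part in the count of targets was not tested. Dkk1, Apcdd1, Axin2 and Lef1 belong to both this list and the members. Notum, an enzyme that inactivates Wnts, and Id2 were named after their values were seen. Notum was 562 in MEF3 and 5680, 3741 and 1150 on the days, and Id2 was 797, then 9097, 8663 and 5904. Tnfrsf19 read 267, then 2933, 2921 and 2175, and Nkd1, a negative feedback gene, 203, then 889, 629 and 298. Lgr5, a receptor for R-spondins, was the one lower, 3345 in MEF3 and 338, 352 and 263. In the established lines the same list was mixed. In CiPSC 2 of 15 tested were higher than in somatic samples (Tnfrsf19 by 2.45 ± 0.39, adjusted p = 2.48e-05, and Ascl2 by 1.91 ± 0.34) and 2 lower (Lgr5 by -4.80 ± 0.69 and Nkd1 by -1.29 ± 0.24), and in ESC 3 were higher and 3 lower. Over all genes 14.9% were higher and 13.3% lower in CiPSC, and 15.3% and 14.3% in ESC. The list's median difference was 0.29 in CiPSC and -0.48 in ESC, beside -0.11 and -0.09 over all genes.

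The genes known to be held down by Tcf7l1 in embryonic stem cells were higher in the pluripotent lines, 6 of 6 tested in CiPSC and in ESC, led by Esrrb (8.64 ± 0.22) and Tfcp2l1 (7.30 ± 0.68) in CiPSC. Several of these listed genes are pluripotency markers themselves, and 14.9% and 15.3% of all genes were higher in CiPSC and in ESC. In treated cells 0, 0 and 2 of 7 were past 2-fold above MEF3 on D12, D20 and D32, and 3 were lower on each day. All genes stood at 20.5%, 21.4% and 24% higher and 25.9%, 27.2% and 29.7% lower on these days.

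Of 62 other genes of the pathway, 52 were tested. In CiPSC 6 were higher and 12 lower than in somatic samples, beside 14.9% higher and 13.3% lower of all genes. In ESC these were 7 and 14, beside 15.3% and 14.3% of all. The medians were -0.14 and -0.39 on the log2 scale, beside -0.11 and -0.09 over all genes tested. Wls, which carries Wnt ligands to the cell surface, was lower by -3.43 ± 0.34 in CiPSC (adjusted p = 4.68e-08) and -4.45 ± 0.41 in ESC. The secreted proteins Frzb (-3.22 ± 0.58 in CiPSC), an Sfrp relative, and Rspo2 (-3.11 ± 0.51), a ligand that amplifies Wnt signals, were also lower, as was Prickle2 (-2.81 ± 0.35) of the planar polarity branch. Lgr5, also a listed target, belongs to this list too. Celsr1, an adhesion receptor of that same branch, was higher by 3.22 ± 0.63. Between CiPSC and ESC none of the 52 was called.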

How the data were processed

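Per the labels, RNA of 30 samples, with Cy5 as the only dye, was measured on the Mouse OneArray v2. The deposited values are linear intensities in 1 table; per the series' design text the authors normalized 5 sample sets separately, with 2 or 3 replicates a sample. The normalization method and genome build were not stated in what was read, and no replicate values were used. Probe genes came from the platform annotation, updated through gene identifiers in RefSeq: 21876 of 26423 probes had 1 gene, 4547 none and 0 several, and 21825 matched. Each gene was represented by its probe with values in most samples, then by the highest mean log2 value. Values under 16 were set to 16 before log2, because in set 5 some intensities were as low as 0.0001; sample medians were 110 to 359. Their number and these floors limit the precision.

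A linear model with group and set terms was fitted over all 30 samples and 23631 genes and unnamed probes (limma 3.58.1, R 4.3.3), separately for each pattern of measured sets with 1 shared variance prior. A test needed 2 sets with both groups and 3 residual degrees of freedom. The code was tested on simulated data. Set 4 and the days have no test. Named were all members called in a comparison, past 2-fold on a day, or central to the pathway, and of each list up to 6 called genes. Members, lists and rules were chosen with earlier results of these data known.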

Additional observations from a re-analysis of the deposited data

Results flagged for a closer look

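Among 104 groups of 4 or 5 values checked with Dixon's ratio, 12 were flagged, and chance flags about 1 in 20. The ratio sets the gap of an end value against the range of its group, so a flag can come with a small difference. CiPS21 lay lowest of the CiPSC lines of set 1 for Sfrp5 (ratio 0.974), Fzd9 (0.932) and Axin1 (0.897). The 4 lines spanned 1.75-fold, 1.33-fold and 1.54-fold for these genes. CiPS34 lay highest for Wnt16 (0.836), for which the lines spanned only 1.095-fold. MNF CiPS1 lay lowest in set 2 for Ctnnb1 (0.884). In the difference between ESC and somatic samples by set, set 5 stood apart for Wnt7a (0.961), Fzd6 (0.951), Wnt7b (0.838), Fzd9 (0.819), Wnt8b (0.742) and Wnt1 (0.727), and set 1 for Wnt4 (0.825).

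Over sets 1, 2 and 3, which hold at least 2 CiPSC lines each (set 5, with 1 line, was not compared), for 5 of 37 members every CiPSC line was above every somatic sample in 1 set and below in another. The gap in the log2 difference was 2.84 for Fzd7 (higher in set 3, lower in set 1), 2.08 for Tcf7l1 (set 2, set 3), 1.37 for Axin1, 0.675 for Kremen1 and 0.39 for Wnt8b (each higher in set 1 and lower in set 3). These differences between sets were not tested.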

How the results depend on the processing

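The counts of called members against somatic samples stayed within 1.5 times under all alternatives run, as did those of the days and of set 4 under another floor or quantile normalization. Leaving out 1 sample at a time gave 9 to 15 members in CiPSC and 11 to 16 in ESC. With the title number as a replicate block there were 13 and 14, as without it, and 0 against ESC and between OSKM iPSC and CiPSC. Deviations of same-numbered samples correlated by -0.404 to 0.552, above 0.1 in 9 of 31 pairs. The number joins samples of different sets and origins, such as MEF1, MNF CiPS1 and CiPS WT1, so this setting cannot test a pairing. Between CiPSC and ESC the count was 0 to 1 when 1 sample was left out and 1 with R1 as the only ESC line (Porcn both times), and 0 in the other settings. OSKM iPSC against CiPSC gave 0 in every setting that could be run; without either OSKM line, or without set 1 or 2, no test could be made. Past 4-fold from MEF3 were 11, 15 and 19 members on D12, D20 and D32; against D12 in place of MEF3, 3 and 14 on D20 and D32. Of single calls, those of Dkk2, Dkk3, Fzd2, Wnt3a, Wnt4 and Wnt5a in CiPSC held in all 36 settings, those of Porcn, Fzd8 and Wnt9a were lost in 17, 14 and 14, that of Tcf7l2 in 8, that of Fzd5 in 4 and those of Fzd1 and Sfrp2 in 1 each. In ESC, Wnt9a, Wnt7a and Fzd2 lost theirs in 15, 14 and 9 of 31. The causes were not tested. No called value reversed its direction in the settings run.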
